A study of Mus musculus with 6 samples.

Results

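The clustered protocadherins are 58 gene rows of the 55492 in the table, chosen by symbol alone: 14 of the alpha cluster, 22 of the beta cluster and 22 of the gamma cluster. Their RNA was measured in cells isolated by magnetic microbeads against O4, a surface lipid antigen of late oligodendrocyte precursors (OPCs) and of immature oligodendrocytes, from whole brains of 16-day-old mice. There were 3 WT mice and 3 Npc1-/- mice, each giving 1 library of poly(A) RNA, and none was treated. Npc1 encodes a protein that carries cholesterol out of late endosomes and lysosomes, and its loss causes Niemann-Pick C disease. The Npc1-/- mice carried the nih allele, a null allele that arose on BALB/cJ, in every cell of the body, and were F1 hybrids of heterozygous parents on BALB/cJ and C57BL6/J backgrounds. The methods speak of genotyping littermates, without naming this experiment. The question for these genes was whether their expression differed between the genotypes, and how it was divided between the members.

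Clustered protocadherins are adhesion proteins of the cell surface, best known from neurons, where each cell uses its own small set of them and the sets let a neuron tell its own processes from those of other cells. The genes stand in tandem arrays. In the alpha and gamma clusters each gene is a large variable exon with its own promoter, which is spliced to constant exons shared by the whole cluster, while a beta gene is a single exon with no constant part. Promoter choice depends on DNA methylation and on loops made by CTCF and cohesin between a promoter and a distant enhancer. The C-type genes at the end of the alpha and gamma clusters (Pcdhac1, Pcdhac2, Pcdhgc3, Pcdhgc4 and Pcdhgc5) are not chosen at random in the way the others are.

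In GENCODE M21 on GRCm38 the clusters lie on the plus strand of chromosome 18, the chromosome of Npc1. The alpha cluster runs from 36930184 to 37187661, the beta cluster from 37264938 to 37524479 and the gamma cluster from 37661793 to 37841873. The distance to Npc1 (12189692 to 12236400) is 24.69 Mb, 25.03 Mb and 25.43 Mb, respectively. All 14 alpha genes share 3 constant exons of 59, 89 and 2712 bases, and all 22 gamma genes share 3 of 59, 89 and 1971 bases. Shared bases make up from 37.96% to 54.94% of the exonic bases of an alpha gene and from 27.78% to 66.79% of those of a gamma gene. Most of these bases lie in the constant exons, whose reads fit every gene of the cluster. Pcdhga4 (3157 shared bases), Pcdhgb1 (3154), Pcdhga8 (2227) and Pcdhgb4 (2224) share bases with other members beyond the constant exons. RSEM, the program named in the submitters' processing notes, divides reads of shared bases between genes by estimation. The values of single alpha and gamma genes are therefore less certain than the sum over a cluster. The symbol Pcdha11 stands for 2 gene identifiers (ENSMUSG00000007440 and ENSMUSG00000102206), which were kept apart, and Pcdhgb8 is annotated as a polymorphic pseudogene.

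The libraries held between 40250000 and 50250000 fragments, as read from the steps between low values. Values below are scaled TPM, which is TPM (a level per transcript length, with the same total in every sample) divided by a size factor per library. Npc1, the check of the labels, had 41.1, 45.5 and 43.9 scaled TPM in WT libraries and 3.72, 5.17 and 4.35 in the 3 Npc1-/- libraries, a log2 fold change of -3.17 (SE 0.12, adjusted p = 0.000398 by limma). Npc1-/- replicate 3 was the only library with Xist, the transcript of the inactive X chromosome, above 0.01 TPM (it had 15.6), and had no Ddx3y, a gene of the Y chromosome, so counts of calls and values of the members named by rule are also given without it. All 24 markers of the OPC, immature and mature oligodendrocyte lists were above 0 in every library. The 8 OPC markers summed to 1050 to 1240 scaled TPM in WT and to 904 to 1220 in Npc1-/-. Their log2 fold changes were below 0 in 4 and above 0 in 4. The 8 immature oligodendrocyte markers, mostly Bcas1, summed to 2770 to 4050 in WT and to 3710 to 6430 in Npc1-/-. All but Bcas1 had a log2 fold change below 0. In 3 of the 8 (Tcf7l2, Itpr2 and Tmem163) every Npc1-/- value was below every WT value, against 14.2% of all tested genes. Neither list had a call. The 12 neuron markers summed to between 217 and 262 scaled TPM in WT and to between 280 and 344 in Npc1-/- libraries. Of the 12, 2 were called higher (Nefl and Nefm), against 0.813% of all tested genes called, and 11 had a log2 fold change above 0. Map2 went the other way (-0.31), with every Npc1-/- value below every WT value. The 8 mature oligodendrocyte markers summed to between 174000 and 245000 in WT and to 220000, 345000 and 434000 in Npc1-/- replicates 1, 2 and 3. The 8 endothelial and mural markers summed to between 834 and 1160 in WT and to between 513 and 629 in Npc1-/-, and the 8 microglia markers to between 202 and 323 and between 93.1 and 180, with Tmem119 called lower. The 8 astrocyte markers summed to 671 to 730 in WT and to 454 to 865 in Npc1-/-. Every Npc1-/- value was below every WT value in 5 of the 8 (Aqp4, Aldh1l1, Slc1a3, Slc1a2 and Gja1), against 14.2% of all tested genes. Every Npc1-/- value was above in 1 (Gfap), against 13.3%, and none of the 8 was called. None of the markers was at 0 in any library, and the part of these shifts in the results below was not tested. In sorted bulk cells, fewer cells of a type and less RNA per cell cannot be told apart.

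The gamma cluster gave most of the clustered protocadherin RNA, and Pcdhgc3 alone gave much of that. Summed over its 22 genes, the gamma cluster was at 161.3, 163.2 and 146.1 scaled TPM in WT and at 166.6, 153.2 and 120.2 in Npc1-/- replicates 1, 2 and 3, between 86.4% and 88.4% of the total over the 58 genes. The 22 beta genes summed to 21.3, 19.2 and 18.4 in WT and to 20.2, 18.2 and 16.6 in Npc1-/-. The 14 alpha genes summed to 2.79, 2.28 and 2.25 in WT and to 3.56, 2.40 and 2.26 in Npc1-/-. In each cluster the ranges of the genotypes overlapped. The log2 ratio of the means was -0.10 for gamma, -0.10 for beta and 0.17 for alpha, each smaller than the spread between mice of 1 genotype (0.18, 0.13 and 0.28 on the log2 scale). For scale, the 12 non-clustered protocadherins together were at 124 to 139 in WT and at 120 to 137 in Npc1-/- libraries.

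**Figure D1:**
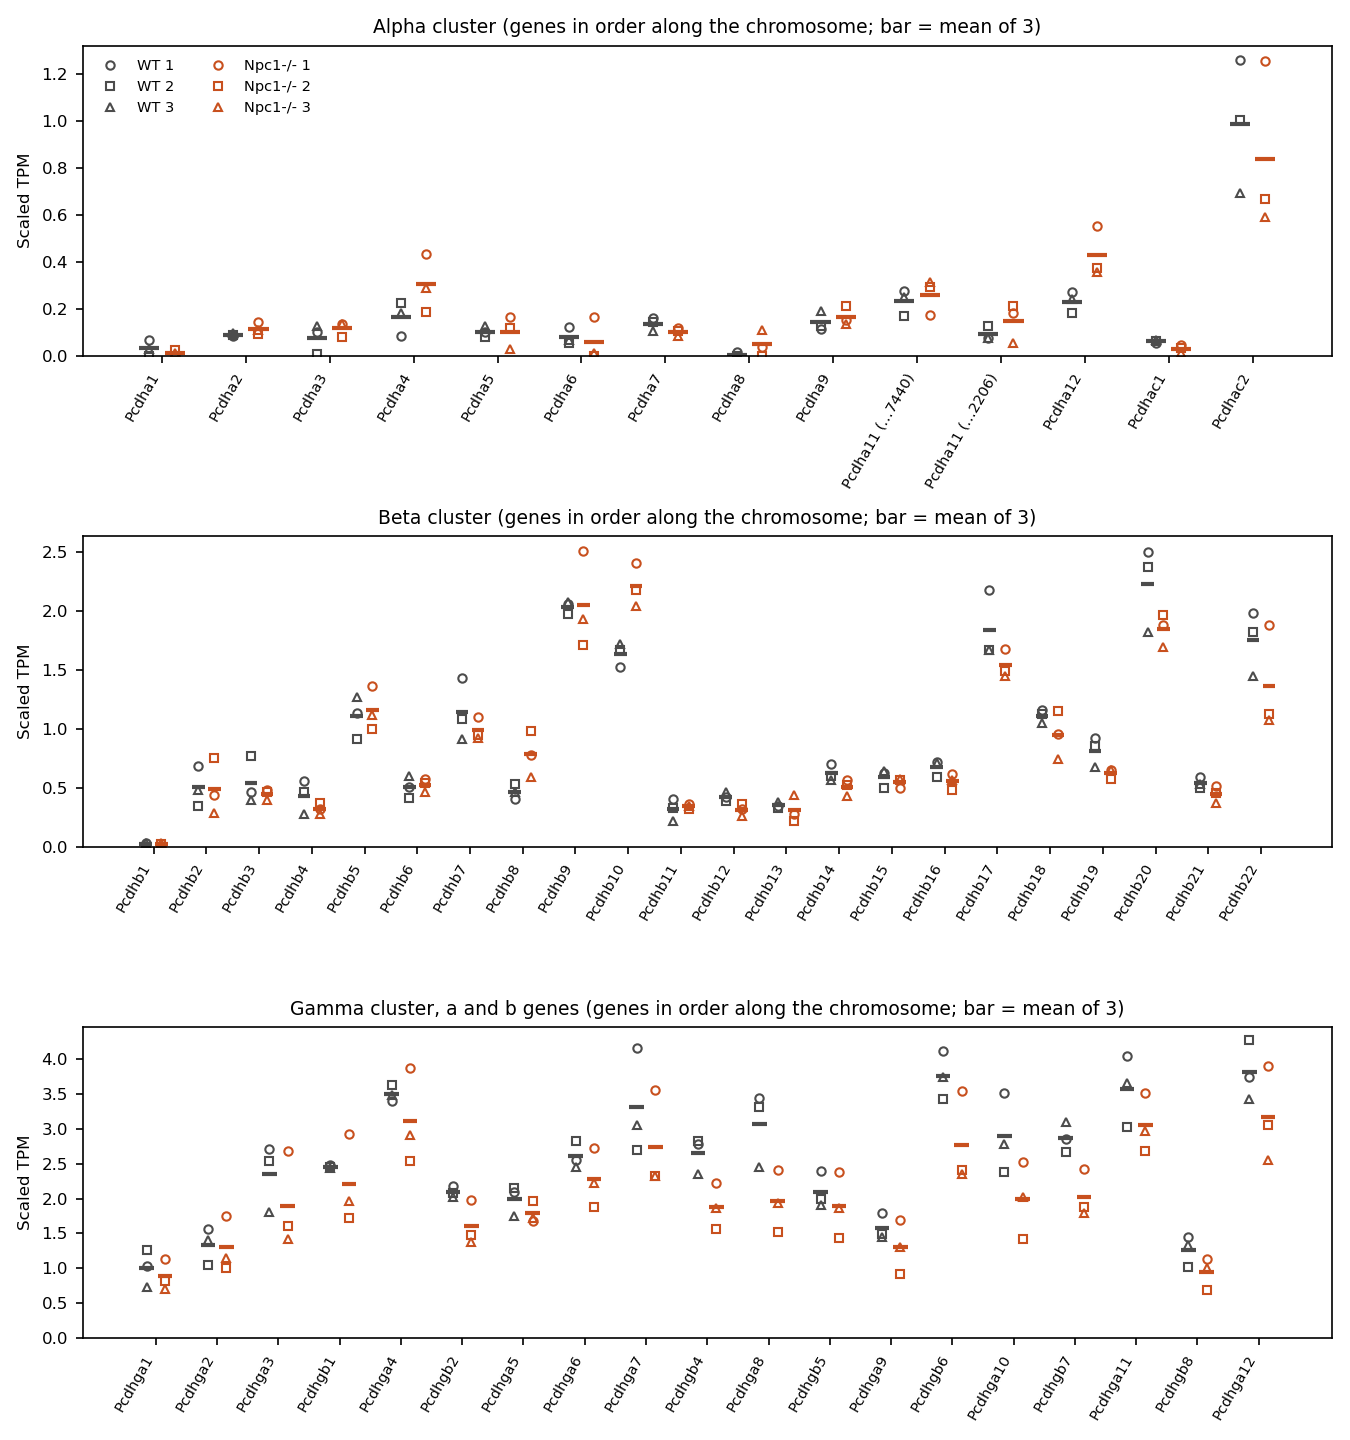
Scaled TPM (y axis, linear from 0, a different range in each panel) of the alpha genes, the beta genes and the 19 gamma a and b genes in order along the chromosome (x axis), with a point per mouse (WT grey, Npc1-/- orange, symbol by replicate number) and a bar at the mean of 3. Alpha genes other than Pcdhac2 stay under 0.6, beta genes reach 2.50 and gamma a and b genes reach 4.28.

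Of the 58 members, 54 were above 0 in every library; Pcdha1, Pcdha6, Pcdha8 and Pcdhb1 were listed at 0 in at least 1. A mean TPM of at least 0.5 over all libraries, the level needed for the test, was reached by 40 members: 1 of 14 alpha genes (Pcdhac2), 17 of 22 beta genes and all 22 gamma genes. Just above that limit stood Pcdhb3, with a mean of 0.513 TPM, and just below it Pcdhb4, with 0.398.

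None of the 40 tested members was called higher or lower in Npc1-/- cells (adjusted p below 0.05 by limma over all tested genes and a log2 fold change of at least 0.1 in size). Over all 15245 tested genes, 124 were called, or 0.813%, so that a count of 0 among 40 is near the background. The lowest adjusted p of a member was 0.15 and the highest 0.995. At an unadjusted p below 0.05 there were 5 of 40 members (12.5%), against 22.2% of all tested genes: Pcdhb10 with a higher value in Npc1-/- cells, and Pcdhga8, Pcdhgb4, Pcdhgb6 and Pcdhgb7 with lower ones. Pcdhgb4, Pcdhgb6 and Pcdhgb7 are named here after their values were seen. The 95% interval of a member's log2 fold change reached between 0.31 and 0.84 to either side (median 0.42).

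The direction of the values was uneven. The log2 fold change was below 0 in 34 of 40 members (85%), with a median of -0.16, while over all tested genes it was below 0 in 49% with a median of 0.01. By cluster it was below 0 in 13 of 17 beta genes (median -0.13) and in 20 of 22 gamma genes (median -0.23). On TPM as deposited the median was -0.31 for the beta and -0.53 for the gamma genes, against -0.33 over all tested genes, so there the beta median was near that of all genes. On scaled TPM without Npc1-/- replicate 3, the log2 fold change was below 0 in 32 of 40 members (median -0.12), none was called, and 3.2% of all genes were called. Every Npc1-/- value lay below every WT value in 6 tested members (15%), against 14.2% of all tested genes, and above in 2 (5%), against 13.3%. Members have long transcripts, with a median of 4724 bases for the longest of each gene against 3189 over all tested genes, and the 3358 tested genes of 4000 to 6000 bases had a median log2 fold change of -0.04, below 0 in 57.2%. With a smooth curve on transcript length taken out of every library, a step added after the data were seen, 32 of 40 members were below 0 with a median of -0.09.

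**Figure D2:**
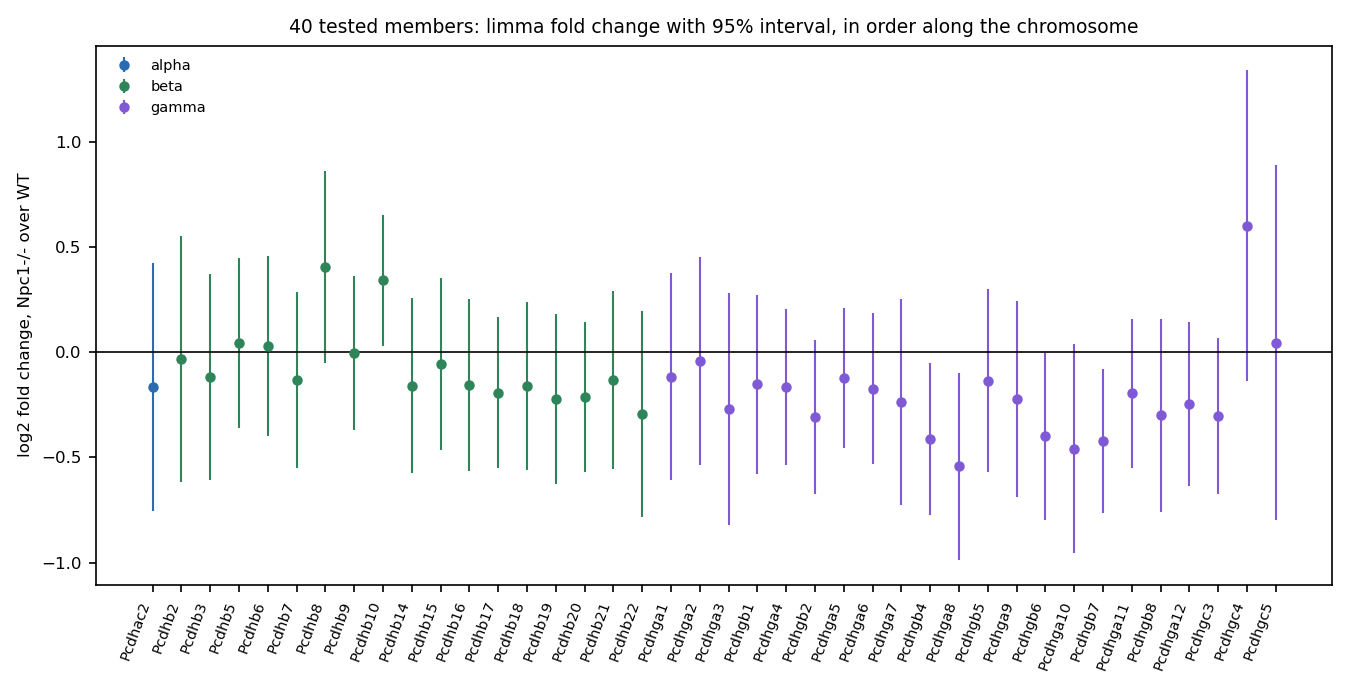
log2 fold change of Npc1-/- over WT (y axis) for the 40 members that could be tested, in order along the chromosome (x axis), with the 95% interval of the limma fit and colour by cluster. Most points lie under the line at 0, the lowest at -0.54 (Pcdhga8) and the highest at 0.60 (Pcdhgc4), and no member was called.

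Pcdhgc3, which binds Axin1 and is known for shaping dendrites of cortical neurons, had the highest level of the 58 and ranked 1166th of the 15245 tested genes. It was at 86.9, 81.8 and 72.8 scaled TPM in WT (80.5 ± 7.13, SD, n = 3) and at 82.2, 60.3 and 55.5 in Npc1-/- replicates 1, 2 and 3 (66.0 ± 14.3, SD, n = 3). Npc1-/- replicates 2 and 3 were below all WT mice and replicate 1 was within their range. Its log2 fold change was -0.30 (95% interval -0.67 to 0.07, adjusted p = 0.314 by limma). Without Npc1-/- replicate 1 it was -0.47 (adjusted p = 0.0825) and without Npc1-/- replicate 3 it was -0.19 (adjusted p = 0.526).

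Pcdhgc4, the gamma gene on which survival of many neurons depends, was at 19.6, 31.5 and 20.6 scaled TPM in WT (23.9 ± 6.61, SD, n = 3) and at 32.0, 57.1 and 24.9 in Npc1-/- replicates 1, 2 and 3 (38.0 ± 16.9, SD, n = 3). WT replicate 2 was above Npc1-/- replicate 3, and Npc1-/- replicate 2 stood far above the other 5. The log2 fold change was 0.60 (95% interval -0.14 to 1.34, adjusted p = 0.317 by limma), the largest among the members, and without Npc1-/- replicate 2 it was 0.27. Without Npc1-/- replicate 3 it was 0.86 (adjusted p = 0.171).

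The means of Pcdhgc3 and Pcdhgc4 differed between the genotypes in opposite directions, without a call, and their sum did not separate the genotypes. The ratio of Pcdhgc4 to Pcdhgc3 was 0.225, 0.385 and 0.283 in the WT mice, against 0.389, 0.947 and 0.448 in the Npc1-/- mice. The lowest Npc1-/- ratio was thus barely above the highest WT ratio. This ratio was not planned, and it sets against each other genes whose means differed in opposite directions. Their sum was 106.5, 113.3 and 93.5 scaled TPM in WT and 114.2, 117.3 and 80.3 in Npc1-/-, a log2 ratio of the means of -0.01 against a spread of 0.24. In Npc1-/- replicate 2 Pcdhgc4 took 37.2% of the gamma total, against 12.1% to 20.7% in the other libraries, and Pcdhgc3 took 39.3%, against 46.1% to 53.9%. Transcript Pcdhgc4-203 has 153 bases of its own and shares the other 2119 of its 2272 bases (93.27%) with the cluster, and it is the most extensively shared of the transcripts of these 3 C-type genes. How far the split between Pcdhgc3 and Pcdhgc4 rests on the shared bases was not tested.

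Pcdhgc5, which has been linked to GABA-A receptors at synapses, was at 2.52, 2.78 and 7.24 scaled TPM in WT and at 4.30, 3.04 and 4.43 in Npc1-/-. WT replicate 3 was above the other 5, which lay close together. Its log2 fold change was 0.04 (95% interval -0.80 to 0.89, adjusted p = 0.959 by limma), and its sign turned in 5 of the alternative fits. Without WT replicate 3 it was 0.48 (adjusted p = 0.236), and without Npc1-/- replicate 3 it was -0.04.

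**Figure D3:**
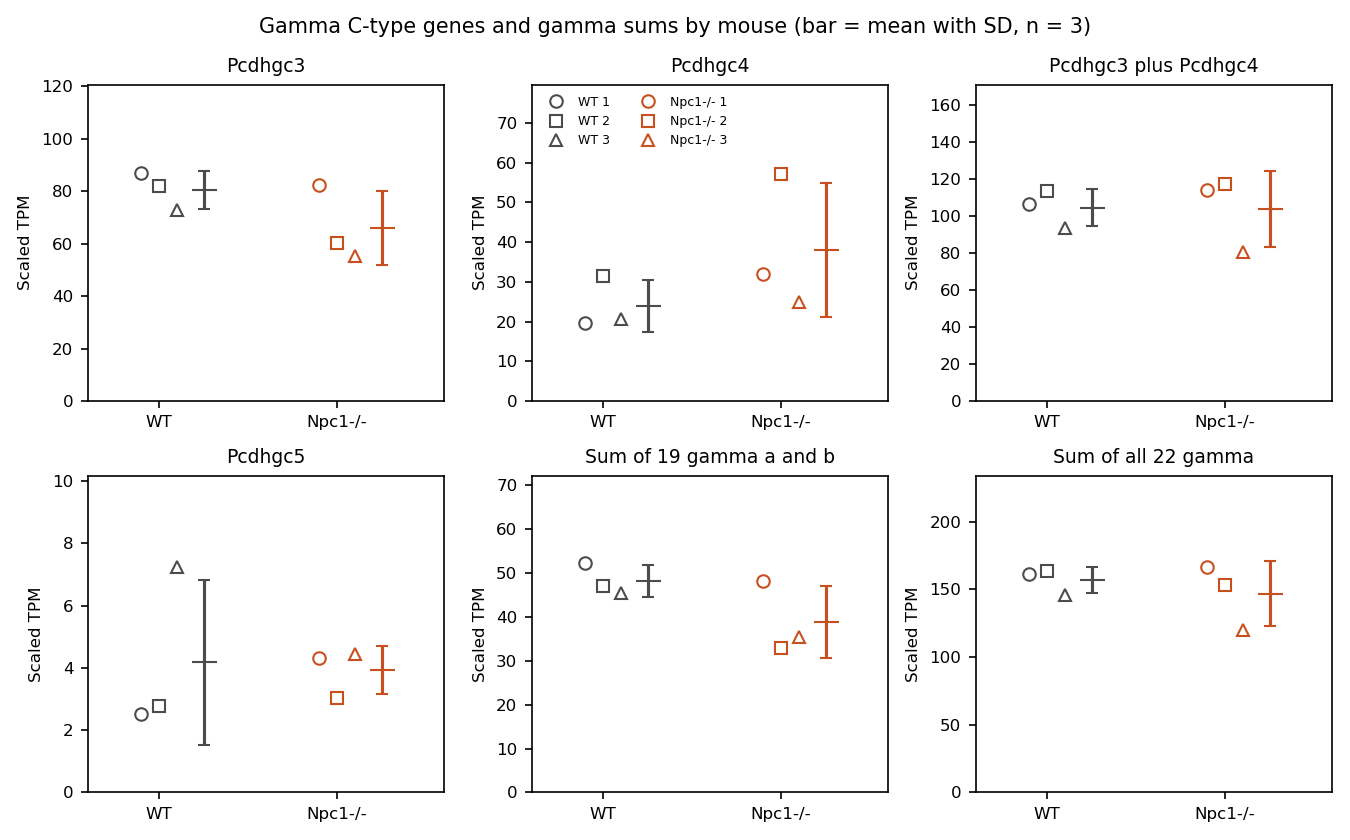
Scaled TPM (y axis, linear from 0) of Pcdhgc3, Pcdhgc4, their sum, Pcdhgc5, the sum of the 19 gamma a and b genes and the sum of all 22 gamma genes, with a point per mouse and the mean with SD (n = 3) beside the points. Pcdhgc4 in Npc1-/- replicate 2 (57.1) stands above the rest, while the sum of Pcdhgc3 and Pcdhgc4 overlaps between the genotypes.

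The other 19 gamma genes, 12 of the a and 7 of the b subfamily, were each expressed at a low level, with means between 0.945 (Pcdhga1) and 3.50 scaled TPM (Pcdhga12). Summed, they were at 52.3, 47.1 and 45.4 scaled TPM in WT (48.3 ± 3.63, SD, n = 3) and at 48.1, 32.9 and 35.5 in Npc1-/- replicates 1, 2 and 3 (38.8 ± 8.13, SD, n = 3). The log2 ratio of the means was -0.32, above the spread between mice of 0.22, but Npc1-/- replicate 1 lay within the WT range and the groups overlapped. The log2 fold change was below 0 in all 19, from -0.54 to -0.04, with a median of -0.24, and none was called. These genes share constant exons and libraries, so their common direction is not 19 separate observations. Npc1-/- replicate 1 was below every WT value in 5 of the 19, replicate 2 in 17 and replicate 3 in 18, against 28.2%, 32.8% and 35.4% of all tested genes. Replicates 2 and 3 were also the libraries with the highest sums of mature oligodendrocyte markers and the smallest size factors (0.855 and 0.727), and the part of either in these values was not tested. Without Npc1-/- replicate 1 the median was -0.39, without replicate 2 it was -0.16 and without replicate 3 it was -0.16. With the length curve removed it was -0.16, with 18 of 19 below 0.

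Pcdhga8 had the lowest log2 fold change of the members. It was at 3.45, 3.32 and 2.45 scaled TPM in WT (3.07 ± 0.55, SD, n = 3) and at 2.42, 1.52 and 1.94 in Npc1-/- (1.96 ± 0.45, SD, n = 3). The highest Npc1-/- value lay just under the lowest WT value. The log2 fold change was -0.54 (SE 0.19, adjusted p = 0.152 by limma), and the exact two-sided permutation p was 0.1, the smallest that 3 against 3 mice can give. Pcdhgb7 had 2.85, 2.67 and 3.10 scaled TPM in WT mice and 2.42, 1.87 and 1.79 in Npc1-/- mice (limma log2 fold change -0.42, adjusted p = 0.15). Pcdhgb4 had 2.79, 2.82 and 2.36 in WT mice and 2.22, 1.57 and 1.86 in Npc1-/- mice (limma log2 fold change -0.41, adjusted p = 0.177). In Pcdhgb6 they overlapped, at 4.12, 3.43 and 3.75 in WT and 3.54, 2.41 and 2.35 in Npc1-/- mice (limma log2 fold change -0.40, adjusted p = 0.221). The log2 fold changes without Npc1-/- replicate 3 were -0.55 for Pcdhga8, -0.36 for Pcdhgb7, -0.41 for Pcdhgb4 and -0.31 for Pcdhgb6.

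The beta genes share no constant exon, and the annotation shows 1 overlap of their exons, between Pcdhb21 and Pcdhb22. How similar their sequences are, and how reads that fit several of them were divided, was not tested. Their means ran from 0.02 (Pcdhb1) to 2.04 scaled TPM, and the top 3 were Pcdhb9, Pcdhb20 and Pcdhb10. Pcdhb9 was at 2.05, 1.97 and 2.07 scaled TPM in WT and at 2.51, 1.71 and 1.93 in Npc1-/- (limma log2 fold change -0.003, adjusted p = 0.995). Pcdhb20 was at 2.50, 2.37 and 1.82 in WT and at 1.88, 1.97 and 1.69 in Npc1-/- (limma log2 fold change -0.21, adjusted p = 0.471). In both genes the groups overlapped. Pcdhb22 had the lowest log2 fold change of the cluster, -0.29 (adjusted p = 0.466 by limma), with 1.98, 1.82 and 1.44 scaled TPM in WT and 1.88, 1.12 and 1.07 in Npc1-/-. It was -0.49 without Npc1-/- replicate 1. The log2 fold changes of Pcdhb9, Pcdhb20 and Pcdhb22 were 0.03, -0.16 and -0.19 without Npc1-/- replicate 3, and that of Pcdhb20 was -0.33 without WT replicate 3 and -0.14 without WT replicate 1. Pcdhb3, just above the limit for the test, had a log2 fold change of -0.12, and of -0.08 without Npc1-/- replicate 3.

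Pcdhb10 and Pcdhb8 were the tested members in which every Npc1-/- value was above every WT value. Pcdhb10 was at 1.52, 1.66 and 1.71 scaled TPM in WT (1.63 ± 0.10, SD, n = 3) and at 2.41, 2.18 and 2.04 in Npc1-/- (2.21 ± 0.19, SD, n = 3). Its log2 fold change was 0.34 (SE 0.13, adjusted p = 0.188 by limma), and without Npc1-/- replicate 3 it was 0.39. These values rested on about 160, 129 and 143 fragments in WT and 208, 163 and 139 in Npc1-/- libraries before scaling. On TPM as deposited, where the median over all genes was -0.33, the log2 fold change of Pcdhb10 was 0.05. Pcdhb8, the largest log2 fold change of the beta cluster, was at 0.401, 0.533 and 0.462 scaled TPM in WT and at 0.781, 0.983 and 0.592 in Npc1-/- (0.40, adjusted p = 0.279 by limma). The log2 fold change was 0.52 without Npc1-/- replicate 3 and 0.29 without Npc1-/- replicate 2.

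Among the beta genes and among the gamma a and b genes, the fold changes tended to be lower further along. Across the 17 tested beta genes the Spearman correlation of the log2 fold change with the order along the chromosome was -0.75, and across the 19 gamma a and b genes it was -0.54. The C-type genes at the end of the gamma array were left out of this correlation. Their log2 fold changes were -0.30 (Pcdhgc3), 0.60 (Pcdhgc4) and 0.04 (Pcdhgc5), and Pcdhgc4 and Pcdhgc5 were the only gamma genes above 0. The genes of an array come from the same 6 libraries, and longer transcripts lay further along (correlation of order with length 0.586 over the 22 beta genes and 0.226 over the 19 gamma genes). With the length curve removed the correlations were -0.61 and -0.52, and with each library left out in turn they were between -0.71 and -0.47 for beta and between -0.61 and -0.32 for gamma. The correlation of the mean level with the order was 0.348 across 22 beta genes, 0.419 across 19 gamma a and b genes and 0.622 across the 12 alpha genes that are not C-type.

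Alpha genes were near the limit of measurement. Pcdhac2, the C-type gene that serotonergic axons need to spread evenly, had the highest level, at 1.26, 1.00 and 0.693 scaled TPM in WT and at 1.25, 0.667 and 0.592 in Npc1-/-. The groups overlapped (log2 fold change -0.17, 95% interval -0.76 to 0.42, adjusted p = 0.754 by limma). The log2 fold change was -0.38 without Npc1-/- replicate 1, -0.04 without Npc1-/- replicate 3, -0.04 without WT replicate 1 and -0.32 without WT replicate 3. Pcdhac1, the other C-type gene of the cluster, was at 0.0540, 0.0633 and 0.0674 in WT and at 0.0454, 0.0351 and 0.0138 in Npc1-/-, values of a few hundredths of a TPM in a table that keeps 2 decimals. The 12 other alpha genes summed to 1.48, 1.21 and 1.49 scaled TPM in WT and to 2.26, 1.696 and 1.65 in Npc1-/-, so that every Npc1-/- sum was above every WT sum (log2 ratio of the means 0.42, spread 0.22). On TPM as deposited the sums overlapped, at 1.92, 1.34 and 1.55 in WT and at 2.49, 1.45 and 1.20 in Npc1-/-. The highest of these sums was that of Npc1-/- replicate 1, which also had the highest sum of neuron markers, 344, and the part of other cells in these values was not tested. The leading genes among them were Pcdha12, at 0.270, 0.181 and 0.241 in WT and 0.554, 0.374 and 0.358 in Npc1-/-, and Pcdha11 (ENSMUSG00000007440), at 0.278, 0.172 and 0.2504 in WT and 0.173, 0.292 and 0.317 in Npc1-/-. Both were under the level needed for the test.

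Genes around the clusters lay on both sides of 0 about equally. The 58 tested genes other than members within 2 Mb of the clusters had a median log2 fold change of 0.03, with 27 below 0 and none called. The 94 within 5 Mb had a median of -0.01, with 47 below 0, and of -0.03 without Npc1-/- replicate 3. Among the 121 genes between Npc1 and the alpha cluster 68 were below 0 (median -0.04), and among the 229 genes beyond the gamma cluster 109 were (median 0.01), with Megf10 called higher. Near Npc1 itself, within 5 Mb, 28 of 35 genes were below 0 (median -0.19), against 49% of all tested genes, and none was called. Every Npc1-/- value was below every WT value in 11 of the 35, against 14.2% of all tested genes. In 2 every Npc1-/- value was above, against 13.3%. Which strain's copy of the clusters each mouse carried was not examined.

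Proteins that open, loop or silence the clusters gave no calls. Of 25 such regulators all were tested and 0 were called by limma, against 0.813% of all tested genes. An unadjusted p below 0.05 was found in 2, against 22.2%. The log2 fold change was below 0 in 18, against 49%, and its median was -0.09. Every Npc1-/- value was below every WT value in 8 of the 25, against 14.2%, and above in 1, against 13.3%. Ctcf, which binds the promoters and enhancers, was at 27.1, 28.2 and 30.9 scaled TPM in WT and at 31.0, 26.9 and 29.3 in Npc1-/- (limma log2 fold change 0.02, adjusted p = 0.938). The cohesin subunits Rad21 and Smc3 had log2 fold changes of 0.15 (adjusted p = 0.496) and -0.06 (adjusted p = 0.78). Smchd1, which keeps the clusters silent, was at -0.12 (adjusted p = 0.67), and Setdb1, a histone H3K9 methyltransferase known to shield them, was at 0.01 (adjusted p = 0.972). Dnmt3b, which methylates the promoters during development, was near the lower limit, at 0.664, 0.542 and 0.664 scaled TPM in WT and 0.545, 0.526 and 0.372 in Npc1-/- (log2 fold change -0.20, adjusted p = 0.584). Rest, a repressor of neuronal genes, had a log2 fold change of -0.15 (adjusted p = 0.529), with all 3 Npc1-/- values (1.86, 1.94 and 1.80) below those of WT (2.11, 2.13 and 2.14).

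The cytoplasmic partners through which protocadherins act were also without calls, with 17 of 20 below 0 (median -0.15) and 0 called by limma. An unadjusted p below 0.05 was found in 6 of the 20, against 22.2% of all tested genes. Ptk2 and Ptk2b encode the kinases FAK and PYK2, which the constant domains hold in check. Ptk2 was at 35.5, 33.8 and 31.2 scaled TPM in WT and at 29.1, 29.2 and 28.7 in Npc1-/- (limma log2 fold change -0.20, adjusted p = 0.21), with all Npc1-/- values below those of WT. Ptk2b was at 2.36, 2.25 and 2.46 in WT and at 1.92, 1.80 and 2.27 in Npc1-/- (limma log2 fold change -0.20, adjusted p = 0.446).

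The non-clustered protocadherins stand as single genes outside the arrays. All 12 were tested, 0 were called by limma, 4 had an unadjusted p below 0.05 (against 22.2% of all tested genes), 10 were below 0 and the median log2 fold change was -0.13. Pcdh9, a protocadherin of the nervous system, was at 40.3, 41.9 and 43.5 scaled TPM in WT and at 55.1, 53.6 and 55.8 in Npc1-/-. All Npc1-/- values were well above those of WT (log2 fold change 0.39, SE 0.08, adjusted p = 0.058 by limma). It passed the threshold when the test was limited to a mean TPM of 5 or more (adjusted p = 0.0443) and with the length curve removed (0.50, adjusted p = 0.0455). Pcdh1 was at 29.2, 22.3 and 22.6 in WT and at 17.95, 16.3 and 17.7 in Npc1-/- (limma log2 fold change -0.49, adjusted p = 0.0812). Pcdh12, a protocadherin of endothelial cells, was at 2.58, 1.15 and 0.857 in WT and at 0.953, 0.854 and 0.509 in Npc1-/- (limma log2 fold change -0.60, adjusted p = 0.336). In all 8 endothelial and mural markers every Npc1-/- value was below every WT value, against 14.2% of all tested genes, with none of the 8 called. Pcdh15 and Pcdh17 had log2 fold changes of 0.35 (adjusted p = 0.313) and -0.26 (adjusted p = 0.481), with overlapping groups. Of the 10 classical cadherins 9 were tested, 0 were called by limma, 3 had an unadjusted p below 0.05 (against 22.2% of all tested genes), 8 were below 0 and the median was -0.26. Without Npc1-/- replicate 3, 0 genes of any of the 4 lists were called.

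**Figure D4:**
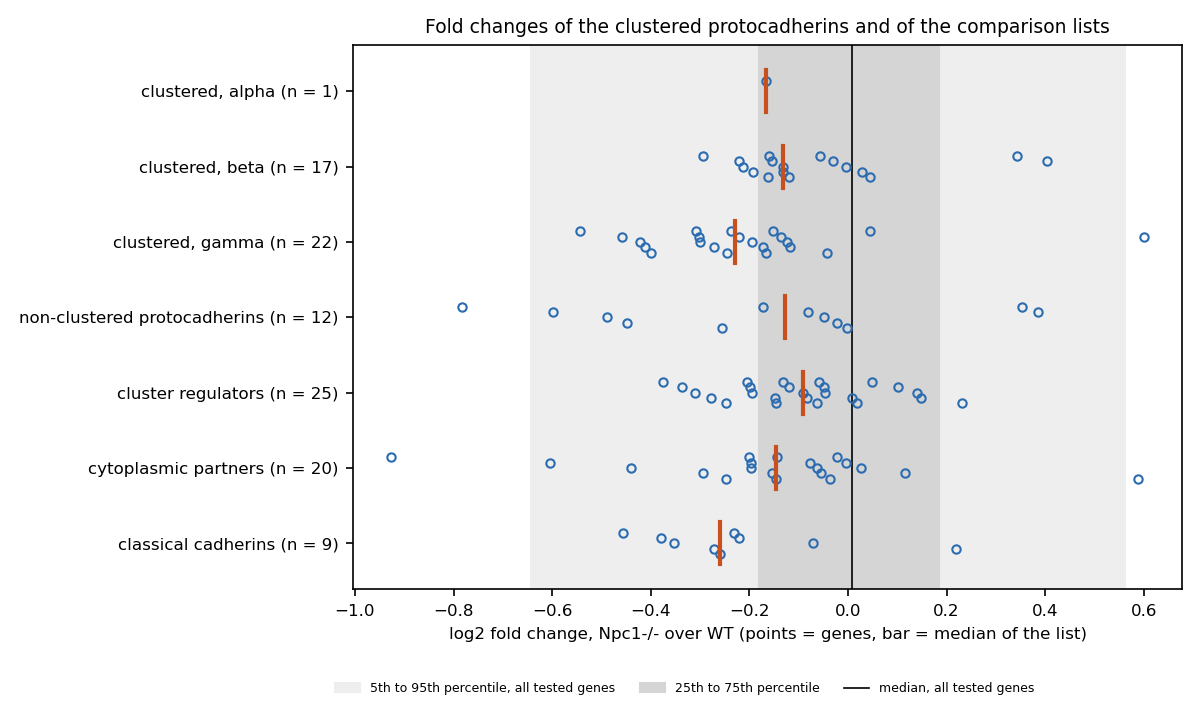
log2 fold change of Npc1-/- over WT (x axis) for each tested gene of the clustered protocadherins by cluster and of the 4 comparison lists (y axis), with an orange bar at each list's median and grey bands for the spread of all 15245 tested genes. The medians of all lists lie below the median of all genes (0.01), between -0.26 for the classical cadherins and -0.09 for the regulators, with -0.23 for the gamma cluster.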

How the data were processed

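RNA was measured in O4-microbead-purified cells of 3 WT and 3 Npc1-/- mice, grouped by the sample labels. The paper's methods name bbduk, STAR, featureCounts and DESeq2 with GRCm38, while the submitters' processing notes list cutadapt 2.3, STAR 2.7.8a, RSEM 1.3.3, FastQC 0.11.8 and MultiQC 1.7. The authors deposited TPM, which has the same sum in each library and keeps 2 decimals, and FPKM, which within a library was the deposited TPM times 1 factor. Strand use is not given in the sources used here, and counts were not analysed here. RSEM divides reads of shared exons by estimation, which bears on alpha and gamma genes.

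TPM was divided by median-of-ratios size factors over 18690 genes (0.727 to 1.30), 0.5 was added and log2 taken, a scale that understates changes of low genes. Genes averaging 0.5 TPM or more (15245) entered a fit by limma 3.58.1 under R 4.3.3 (lmFit, eBayes with trend, genotype only, two-sided, Benjamini-Hochberg). Calls needed an adjusted p below 0.05 together with a log2 fold change of 0.1 or more in size, the thresholds of the study. Each single value was also compared by an exact permutation test over the 20 arrangements of 6 mice, whose smallest p is 0.1. The spread quoted for sums is the pooled SD of log2 values within genotypes, and sums were not tested. Depth was read from whole-fragment steps of low FPKM in genes with a single transcript: between 78.9% and 83.2% of values lay within 0.15 of a whole number, against 30.0% by chance. Where a gene has several transcripts, whole fragments were not recovered. Gene positions, transcripts and exons came from GENCODE M21 on GRCm38, which may differ from the annotation the authors used. Python 3.11.15 with pandas 2.3.3 and matplotlib 3.10.9 made tables and plots.

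The members and lists were chosen with earlier results of these data known. Members named were the 3 with the highest level in each cluster, those with the largest and smallest fold change, all C-type genes, any called gene and those beside the TPM limit. In the lists, named genes were any called gene and a fixed set. The ratio of Pcdhgc4 to Pcdhgc3 and the correlations with order along the chromosome were not among the planned comparisons. The alternatives tried were deposited TPM, quantile normalization, FPKM, other pseudocounts and filters, limma without trend or with robust estimation, the replicate number as a block, each mouse left out and, added after seeing the data, a transcript length curve (loess, span 0.3) and sums without C-type genes.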

Additional observations from a re-analysis of the deposited data

How the results depend on the processing

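No clustered protocadherin was called under any alternative other than the fit in which replicate numbers formed a block. The labels give both genotypes the numbers 1, 2 and 3, but the mice differ and the labels do not name them as pairs, so the block was not used in the main fit. Deviations from the genotype mean correlated at 0.414, 0.0602 and 0.326 between the samples numbered 1, 2 and 3, all above 0. Whether same-numbered samples belong together was not tested. In the block fit 1 of 40 members was called higher (Pcdhgc4, limma log2 fold change 0.60, adjusted p = 0.038) and 0 lower. Also called were 3 of 12 non-clustered protocadherins, 3 of 20 cytoplasmic partners and 1 of 9 tested classical cadherins. That fit called 2011 genes in all, or 13.2% of those tested, against 0.813% in the main fit. The 124 genes called in all became 924 on TPM as deposited, 227 with quantile normalization, 21 with no filter, 447 at a mean TPM of at least 5, where 2 members could be tested, and 42 without trend. With each mouse left out in turn they were between 5 and 488, the latter without Npc1-/- replicate 3. A single non-clustered protocadherin was called on TPM as deposited (1, Pcdh18), at a mean TPM of at least 5 (1, Pcdh9) and with the length curve removed (1, Pcdh9), and 1 cytoplasmic partner (Wasf2) on TPM as deposited. Cluster sums on TPM as deposited, where the median over all genes was -0.33, had log2 ratios of -0.16 for alpha, -0.45 for beta and -0.43 for gamma, and the genes within 5 Mb a median of -0.35. For gamma the median over members gave -0.46 and the sum without the C-type genes -0.32. With each mouse left out the log2 ratio lay between -0.07 and 0.29 for alpha, negative without Npc1-/- replicate 1, between -0.17 and -0.03 for beta and between -0.20 and 0.03 for gamma, positive without Npc1-/- replicate 3. For the 11 named members that were tested, 177 of 178 alternative values stayed on the same side of the threshold, and in 12, in Pcdhb3, Pcdhb9 and Pcdhgc5, the sign differed. Many of the 178 could not differ in sign. The fits with other filters, without trend, with robust estimation or with the block leave the log2 fold change as it was. FPKM divided by its size factors differs from scaled TPM only by 1 common factor before 0.5 is added. The cause of the shifts between settings was not tested. Single-transcript beta genes rested on between 0 and 386 fragments per library, which limits what could be detected in them.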
